A study of Mus musculus with 20 samples.

Results

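The nuclear genes of the mitochondrial respiratory chain were described by complex in primary mouse ovarian surface epithelial (OSE) cells grown with or without 17β-estradiol (E2). Members were the genes whose symbol begins with Nduf followed by a, b, c, s or v, is Sdha to Sdhd, or begins with Uqcr, Cox4 to Cox8 or Atp5. This rule took 96 of the 14299 genes in the table: 47 for complex I, 4 for complex II, 9 for complex III, 15 for complex IV and 21 for complex V. Of these, 80 are counted as subunits, with the supercomplex factor Cox7a2l and factor B (Atp5s) among them, 8 are assembly factors of complex I and 8 are pseudogenes.

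The respiratory chain lies in the inner mitochondrial membrane. Complexes I and II pass electrons from NADH and succinate to ubiquinone, complex III passes them on to cytochrome c, complex IV reduces oxygen, and complex V uses the resulting proton gradient to make ATP. Complexes I, III, IV and V each join nuclear-encoded subunits to a few that are made from mitochondrial DNA, whereas complex II is encoded in the nucleus alone. The OSE forms the outer lining of the ovary and divides to close the wound left by each ovulation.

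Cells were first held in hormone-free medium for 48 h and then received either 100 nM E2 or ethanol vehicle (0.0002%) until day 15. Each condition was loaded as 1 suspension through its own inlet of a Fluidigm C1 chip and divided over chip columns, each of which gave 1 library for 3' end sequencing. The condition and the suspension therefore cannot be told apart, and the spread between libraries does not cover separate cultures. The table held 329 control cells in 10 libraries (columns 1 to 10) and 260 E2 cells in 9 libraries. The deposited k = 2 clustering divides them into cluster 1 (126 control and 42 E2 cells) and responsive cells (203 control and 218 E2 cells). Cluster 1 is the study's name for the cells that it regards as unresponsive to E2. In the deposited k = 2 labels these cells carry the label 2, and the responsive cells carry the label 1. Estimated counts were summed per library within each cluster where at least 3 cells were present, which gave 10 control and 9 E2 sums of responsive cells, and 10 control and 7 E2 sums of cluster 1. Levels are CPM, counts scaled to library size with TMM factors. A level of a sum does not separate fewer cells that express a gene from less RNA of it per cell.

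Library totals ranged from 3867791 to 5078340 counts in control and from 2693258 to 4037847 in E2. The sums of cluster 1 with E2 held least, from 233995 to 771505 counts. Library 15 (E2) stood apart from every other library, and in its responsive cells the difference of the members followed transcript length. There, the 21 measured members with a transcript under 600 bases were all lower than the mean of the other E2 libraries, by a median log2 difference of -2.09, and the 38 members of 1000 bases or more had a median of 0.37. Genes other than members showed the same division, with medians of -1.72 under 600 bases (178 of 201 lower) and 0.15 at 1000 bases or more. In its cluster 1 sum the members of 1000 bases or more were low too, with a median of -1.45 (26 of 37 lower) against -2.50 under 600 bases and -0.77 between, and over all genes the Spearman correlation with length was 0.023 in responsive cells (8784 genes) and 0.029 in cluster 1 (8186 genes). The members are short genes, with a median transcript of 795 bases against 2784 over all genes, so results are given with and without library 15. All 8 listed OSE markers were in the table and summed to 4596 to 5395 CPM in responsive control and 3755 to 6318 CPM in cluster 1 control sums, with Lgals7 at 0 in cluster 1. Within that list, Msln (log2 3.28) and Krt18 (0.91) were past the call rule explained below as higher in cluster 1, and Krt19 (-4.41) and Krt8 (-0.81) as lower. The 6 of 8 fibroblast markers in the table summed to 1972 to 2385 CPM in responsive control, 1694 to 4653 in responsive E2, 2714 to 4381 in cluster 1 control and 2664 to 10410 CPM in cluster 1 E2 sums. None of the 6 was at 0. By the same rule Col1a2 (log2 7.27) was higher in cluster 1 and Col1a1 (-0.93), Col3a1 (-1.25) and Thy1 (-4.36) were lower, and the part of these markers in the differences between clusters was not tested.

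**Figure D1:**
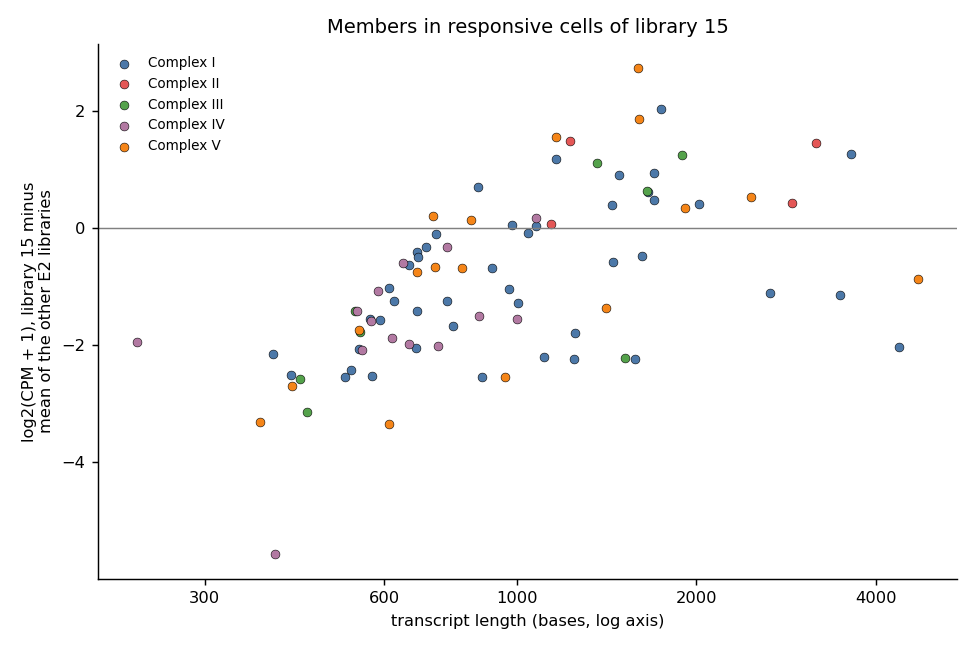
Difference of library 15 from the mean of the other E2 libraries in responsive cells (vertical axis, log2 of CPM + 1) against transcript length in bases (horizontal log axis), with 1 point per member coloured by complex. The points under 600 bases all lie below 0, and the 4 members of complex II all lie above it.

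In cluster 1, the summed RNA of complexes II, III and V was lower than in responsive cells of the same library in all 17 libraries that held both sums. Complex IV was lower in 16 of 17, whereas complex I was lower in 12 of 17 by a small amount. This contrast between complexes I and IV rests on Ndufa4, which has a complex I symbol but is now placed in complex IV. With Ndufa4 counted there, complex I was lower in 16 of 17 libraries and complex IV in 14 of 17, each by a mean log2 difference of -0.19. The clusters were built from expression in these same cells, so these differences are a description of size against the spread between libraries, with no test.

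Complex III was clearly separated in control. Its summed level was lowest at 6724, with a median of 7206 and a highest value of 8016 CPM, in responsive control cells, and 3765, 4688 and 5055 CPM in cluster 1 control cells. These control ranges did not overlap. The mean log2 difference of cluster 1 from responsive cells was -0.66 (SD 0.24, n = 17 libraries).

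Complex V, the ATP synthase, had a lowest level of 11133, a median of 11623 and a highest level of 12745 CPM in responsive control cells, against 7155, 8547 and 9837 CPM in cluster 1 control cells. These control ranges were also apart, and the mean log2 difference was -0.50 (SD 0.17, n = 17). Complex IV had 10567, 10933 and 11456 CPM in responsive control cells and 7525, 8562 and 9618 CPM in cluster 1 control cells. Its ranges did not overlap in control, and the mean log2 difference was -0.32 (SD 0.22, n = 17), although the E2 libraries by themselves ranged from -0.69 to 0.10.

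Complex I had 13991, 14850 and 15475 CPM in responsive control cells and 13120, 13639 and 15700 CPM in cluster 1 control cells. These ranges overlapped, and the mean log2 difference was -0.11 (SD 0.12, n = 17). It was 0.013 on CPM without TMM factors, so its direction was not settled. Complex II, succinate dehydrogenase, had the lowest sums, at 494, 616 and 723 CPM in responsive control cells and 344, 434 and 601 CPM in cluster 1 control cells. Its control ranges overlapped although every library with both sums was lower in cluster 1, with a mean log2 difference of -0.67 (SD 0.53, n = 17). That difference was -0.45 (SD 0.34) over the 10 control libraries and -0.98 (SD 0.62) over the 7 E2 libraries, a gap that was not tested. Without library 15 the mean differences were -0.10 for complex I, -0.66 for II, -0.67 for III, -0.34 for IV and -0.47 for V. Unlike in control, the E2 ranges of complexes III, IV and V overlapped between clusters even without library 15. For III they ran from 5760 to 9468 CPM in responsive and from 2783 to 6311 CPM in cluster 1 E2 cells. The same ranges were 9795 to 13506 and 7799 to 11785 CPM for IV, and 10212 to 13081 and 7578 to 10688 CPM for V.

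Other short genes moved in the same direction. The 976 genes outside the set with a transcript under 600 bases summed to 96299 to 112974 CPM in responsive control cells and 73110 to 89261 CPM in cluster 1 control cells, and they were lower in cluster 1 in 17 of 17 libraries, by log2 differences of -0.05 to -0.76. The part of transcript length in the differences between clusters was not tested.

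**Figure D2:**
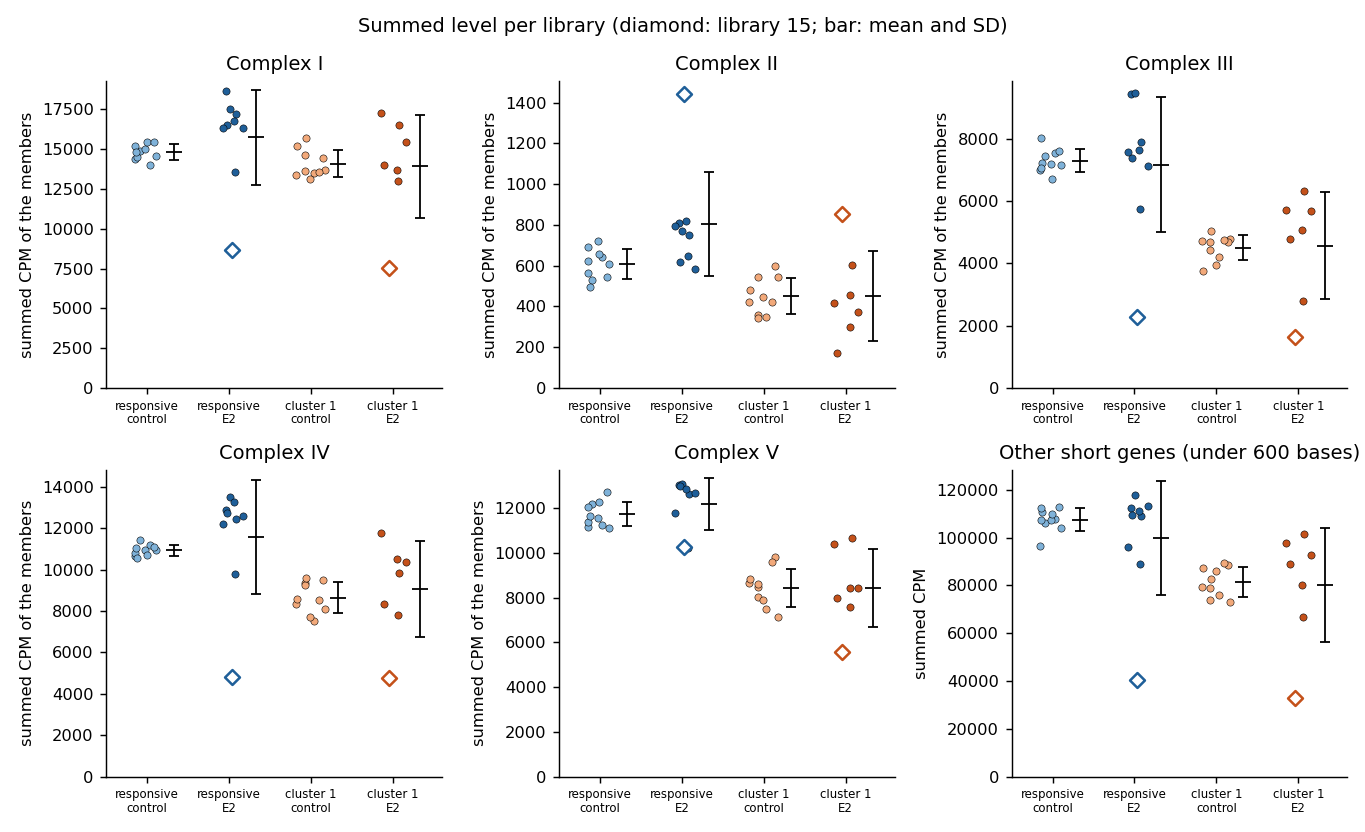
Summed CPM per library (vertical axes, linear from 0) of the members of each complex and, in the last panel, of 976 other genes with transcripts under 600 bases, for the 4 combinations of cluster and condition. Points are libraries, the diamond is library 15, and bars give mean and SD; the control points of complexes III, IV and V in cluster 1 all lie below those in responsive cells.

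Members were next compared singly with edgeR's quasi-likelihood test across all genes, and a gene was called at a Benjamini-Hochberg adjusted p below 0.05 with a log2 fold change beyond 0.5. Between clusters 91 members were tested, of which 26 were past this rule as lower in cluster 1 and 1 as higher, again as a description. Over all 11398 genes tested, 9.78% were lower and 6.25% higher by the same rule. With DESeq2 size factors the members divided into 22 lower and 2 higher, and the calls over all genes moved from 1115 lower and 712 higher to 972 lower and 922 higher. The median log2 difference of the members was -0.31, against -0.06 over all genes. In all, 10 members (11.0% of those tested) were lower in every library with both sums, compared with 2.18% of all genes. Among members of 1000 bases or more, 7 of 39 (17.9%) were past the rule as lower, against 9.32% of all genes of that length. Without library 15, 29 members were past the rule as lower and 1 as higher. Over all 11611 genes then tested, 1189 were lower and 756 higher. Ndufa10 left the set of members past the rule, and Ndufaf1, Sdhd, Uqcr11 (log2 -0.56) and Atp5mpl (log2 -0.52) entered it. The 5 members that failed the filter on low counts were all pseudogenes: Ndufa11b, Uqcrh-ps1, Atp5k-ps2, Atp5l-ps1 and Atp5l-ps2.

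**Figure D3:**
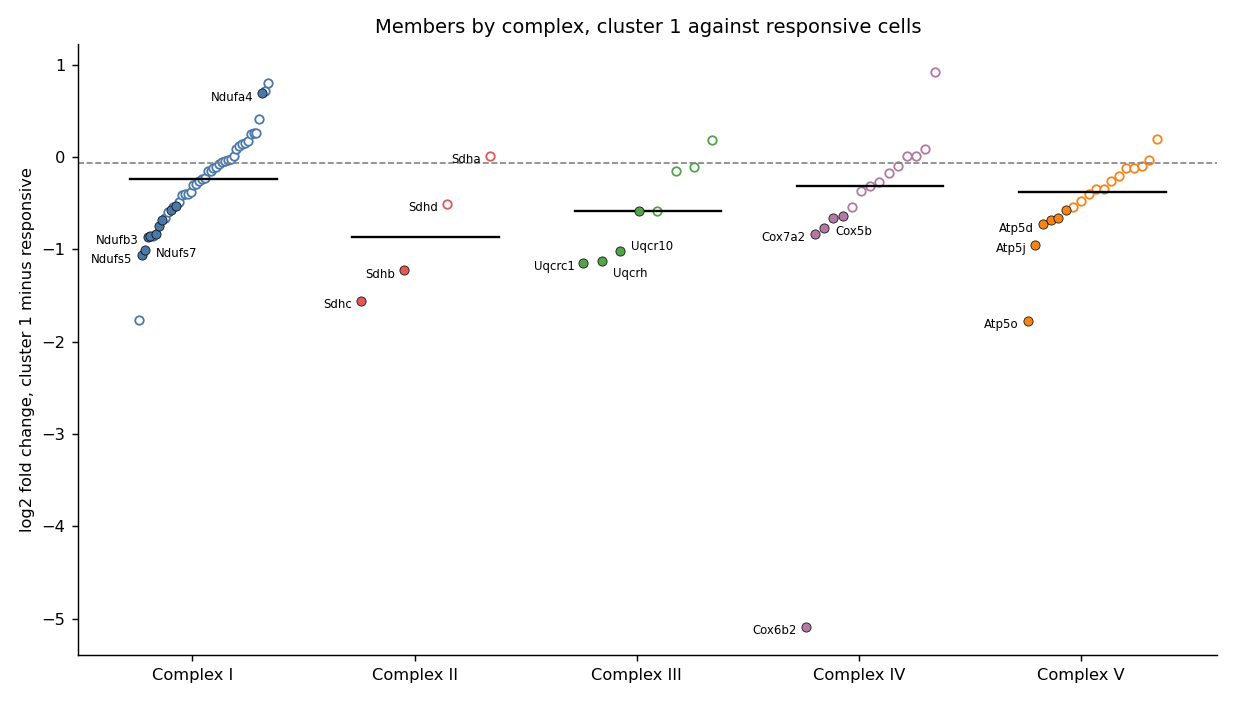
Fitted log2 fold change, cluster 1 minus responsive cells (vertical axis), of the 91 tested members ordered by size within each complex (horizontal axis). Filled points are past the call rule, black bars are the medians of each complex (-0.23, -0.87, -0.59, -0.31 and -0.38 from I to V) and the dashed line is the median of all genes.

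In complex I, 9 of 46 tested members were lower and Ndufa4 was higher. Of the 7 core subunits, which carry the redox centres, only Ndufs7 was past the rule. It holds the last iron-sulphur cluster before ubiquinone, and it measured 233 CPM at lowest, 309 at median and 544 at highest over the 19 responsive sums, against 31.2, 153 and 338 CPM over the 17 cluster 1 sums. The ranges overlapped, but 16 of 17 libraries were lower (log2 -1.0, SE 0.18).

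Of the 29 accessory subunits, 7 were past the rule. Ndufs5 had 136, 343 and 510 CPM in responsive cells and 27.6, 179 and 257 CPM in cluster 1, and was lower in 17 of 17 libraries (log2 -1.07, SE 0.20). Ndufb3 had 107, 243 and 331 CPM against 49.9, 122 and 335 CPM and was lower in 15 of 17 libraries (log2 -0.87, SE 0.18). The lowest responsive value of both genes was that of library 15. The other accessory subunits past the rule were Ndufb4, Ndufb9, Ndufa7, Ndufa6 and Ndufa10, of which Ndufa10 was not past it without library 15 (log2 -0.47), and the ninth member was the pseudogene Ndufb4c, whose reads may be shared with Ndufb4. None of the 8 assembly factors, which build the complex without remaining in it, was past the rule with all libraries. Their largest difference was that of Ndufaf6 (log2 -1.77, adjusted p = 0.126 by edgeR), at medians of 7.8 and 2.1 CPM. Without library 15, Ndufaf1 was past the rule as lower (log2 -0.87, SE 0.24; -0.67 with all libraries).

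Ndufa4 (chr6:11900292-11907497 in GRCm38, as GENCODE M21 gives it) carries a complex I symbol but is now placed in complex IV. It was the member that was higher in cluster 1, at 826, 1577 and 2447 CPM against 543, 1056 and 1289 CPM in responsive cells. The ranges overlapped through library 15, which gave the lowest value in both clusters, while all 17 libraries were higher in cluster 1 (log2 0.69, SE 0.12). It made up 6.83% of the complex I sum in responsive cells and 11.97% in cluster 1. With Ndufa4 counted in complex IV, the mean log2 difference of complex I became -0.19 (lower in 16 of 17 libraries) and that of complex IV -0.19 (14 of 17).

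Complex II has 4 subunits, which did not all differ alike. Sdhc and Sdhd anchor the enzyme in the membrane, Sdha binds FAD and oxidises succinate, and Sdhb carries the iron-sulphur clusters. Sdhc (chr1:171127165-171150603, GRCm38) had 91.7, 147 and 402 CPM in responsive cells and 0, 50.9 and 146 CPM in cluster 1. It was lower in 16 of 17 libraries (log2 -1.56, SE 0.29; -1.35 without library 15, which held the value of 402 CPM).

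Sdhb had 63.6, 131 and 211 CPM in responsive cells and 0, 49.4 and 121 CPM in cluster 1, and was lower in 14 of 17 libraries (log2 -1.23, SE 0.31). Sdhd had a log2 difference of -0.51 (SE 0.23) and was not past the rule with all libraries, but was without library 15 (log2 -0.70, SE 0.17). Sdha, in contrast, had medians of 160 and 142 CPM, was lower in 7 libraries and higher in 10, and had a log2 difference of 0.01 (SE 0.22).

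In complex III, 4 of 8 tested members were lower. Uqcrc1, a core subunit, had 107, 194 and 308 CPM in responsive cells and 14.8, 84.9 and 168 CPM in cluster 1, and was lower in 16 of 17 libraries (log2 -1.15, SE 0.22). The hinge subunit Uqcrh, which helps cytochrome c to dock, had 247, 761 and 1081 CPM against 57.1, 332 and 532 CPM (log2 -1.12, SE 0.17). Uqcr10 had 393, 2328 and 3242 CPM against 187, 1076 and 1985 CPM (log2 -1.02, SE 0.18). The latter pair were lower in all 17 libraries, and in each of them the lowest value in both clusters was that of library 15. Uqcrq was also lower (log2 -0.59, SE 0.17). The core subunits Uqcrc2 (log2 -0.15) and Uqcrfs1, the Rieske protein (log2 -0.11), were not past the rule.

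In complex IV, 5 of 15 members were lower. Cox7a2 had 392, 1389 and 1889 CPM in responsive cells and 270, 778 and 1152 CPM in cluster 1 (log2 -0.84, SE 0.14), and Cox5b had 214, 557 and 708 CPM against 26.0, 331 and 618 CPM (log2 -0.77, SE 0.19). Both were lower in 17 of 17 libraries. Cox6c (log2 -0.64, SE 0.17) and its near-identical processed copy Cox6c2 (log2 -0.66, SE 0.24) were past the rule as well, and estimated counts may pass between them.

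Cox6b2 (chr7:4751792-4753094), the testis-type form of a subunit that faces the intermembrane space, showed the widest difference of any member. It had 11.7, 27.8 and 51.9 CPM in responsive cells and 0, 0 and 6.4 CPM in cluster 1, without overlap. In reads these are 883 and 691 in responsive control and E2 cells, 21 in cluster 1 control cells, with 5 of 10 sums at 0, and 0 in cluster 1 E2 cells. Responsive E2 cells were at least 31.5-fold higher than the level that 3 reads over all cluster 1 E2 sums would give. A read was found in 66 of 203 responsive control cells (32.5%; exact 95% interval 26.1 to 39.4), 76 of 218 responsive E2 cells (34.9%; 28.6 to 41.6), 8 of 126 cluster 1 control cells (6.35%; 2.78 to 12.1) and 0 of 42 cluster 1 E2 cells (0%; 0 to 8.41). Counted as 3 cells of 42, the floor for a count of 0 is a share of up to 7.14%. These intervals cover counting error only. Thinned to 20000 reads per cell the shares were 23.6%, 22.02%, 4.76% and 0%. The fitted log2 difference of -5.09 rests on these near-zero levels and depends on the prior count.

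The paralogs gave a mixed picture. With 1 CPM added to each level, the log2 ratio of Cox6b2 to its ubiquitous form Cox6b1 was -5.45 (SD 0.66) in responsive control and -5.45 (SD 0.62) in responsive E2 cells, and -9.04 (SD 1.19) in cluster 1 control cells. The ratio of the muscle-type Cox7a1 to Cox7a2 was -5.81 (SD 1.15) in responsive control and -4.22 (SD 2.11) in cluster 1 control cells, which overlapped. The ratio of the supercomplex factor Cox7a2l to Cox7a2 was -2.20 (SD 0.28) in responsive control and -1.38 (SD 0.57) in cluster 1 control cells, which overlapped too. Cox7a2 was itself past the rule as lower in cluster 1, whereas Cox7a2l was not past it. Cox6a2 had few reads and a median of 0 CPM in both clusters. Of the 3 genes for the identical c-ring subunit, Atp5g2 was lower in 17 of 17 libraries (log2 -0.69, SE 0.14), whereas Atp5g1 (log2 -0.40, SE 0.13) and Atp5g3 (log2 -0.34, SE 0.10) were not beyond the fold threshold.

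In complex V, 6 of 18 tested members were lower. Of these, 3 belong to the 4 peripheral stalk subunits, which hold the catalytic head still against rotation. Atp5o (chr16:91925214-91931687), also named OSCP and set at the top of the stalk, had 855, 1015 and 1343 CPM in responsive cells and 90.2, 312 and 543 CPM in cluster 1. No cluster 1 sum reached any responsive sum, and the log2 difference was -1.78 (SE 0.15). A read was present in 203 of 203 responsive control cells and 115 of 126 cluster 1 control cells. For this gene library 15 lay within the range of the other E2 libraries in both clusters.

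Atp5j had 472, 707 and 1017 CPM against 132, 366 and 549 CPM (log2 -0.95, SE 0.14) and was lower in 17 of 17 libraries. Atp5h was lower as well (log2 -0.66, SE 0.11), and the remaining stalk subunit, Atp5f1, had a log2 difference of -0.48 and was not beyond the fold threshold. Of the 5 subunits of the F1 head and central stalk, Atp5d (216, 529 and 719 CPM against 95.2, 326 and 448 CPM; log2 -0.73, SE 0.15) and the catalytic Atp5b (log2 -0.57, SE 0.10) were lower. Exons of Atp5j and Atp5d overlap those of the antisense genes Gabpa and Cbarp, exons of Atp5o overlap antisense genes and another annotated Atp5o gene, and the strand setting of the counting is not given in the sources used here.

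**Figure D4:**
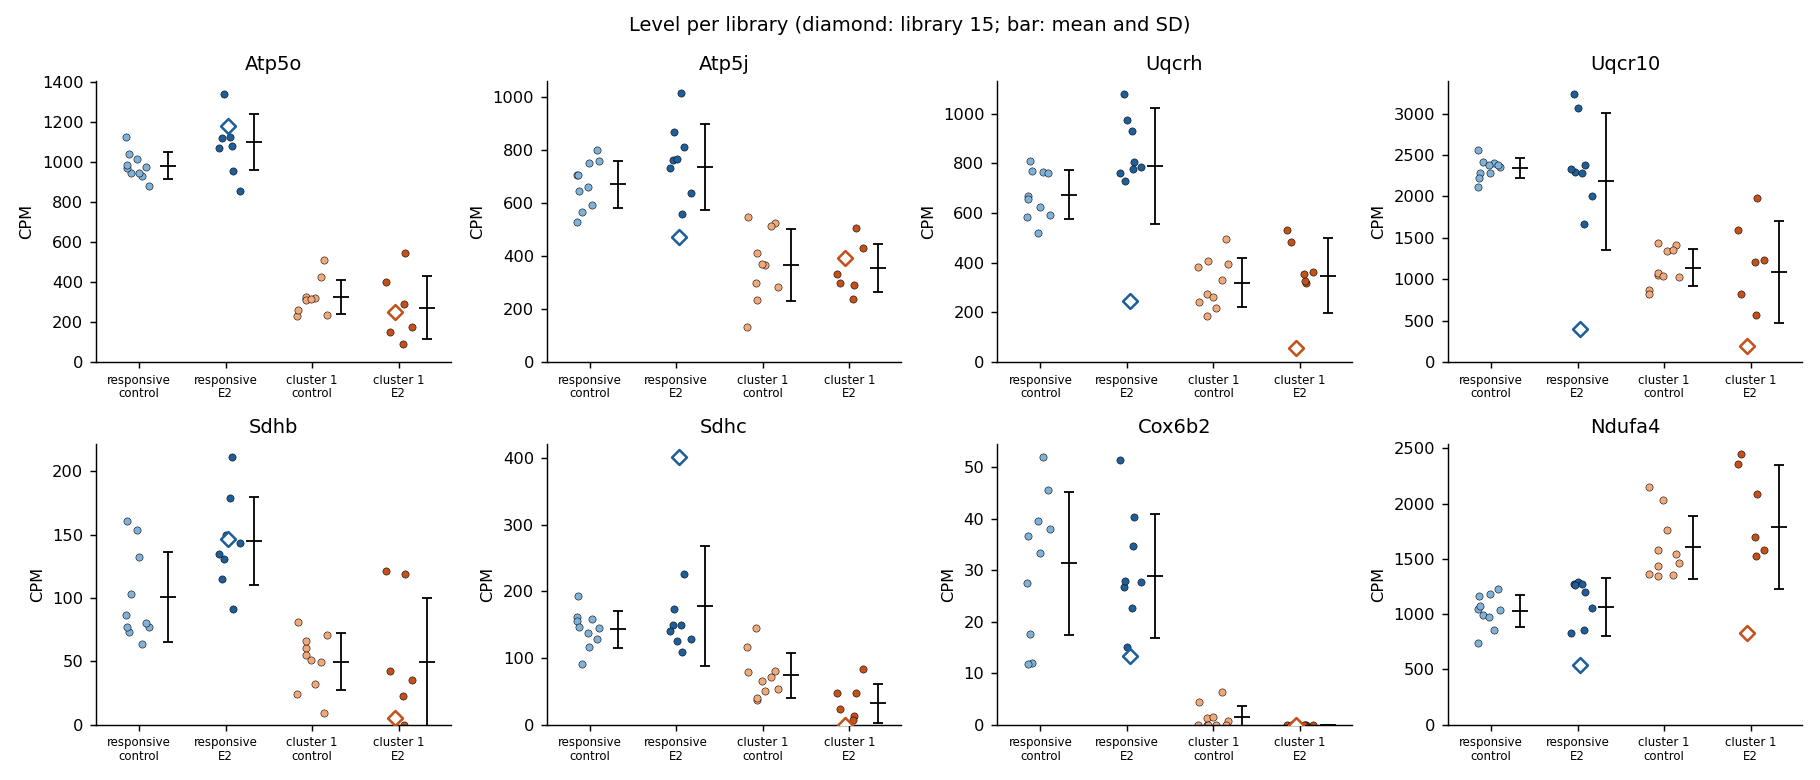
CPM per library (vertical axes, linear from 0) of 8 members in the 4 combinations of cluster and condition, with library 15 as a diamond and bars for mean and SD (clipped at 0 for Sdhb). All cluster 1 points of Atp5o and Cox6b2 lie below all responsive points, and Ndufa4 runs the other way.

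Sequences before the start sites of the members are shown because many of them were lower together in cluster 1. RefSeq promoters (GRCm38.p6; 250 bases before to 50 after each start) were matched for 72 of 96 members, as 77 promoters, and searched on both strands for 4 short motifs of factors known to act on respiratory genes. Overlapping matches of a motif on its 2 strands were counted once per promoter. The NRF1 core GCATGCGC was in 12 of 77 member promoters (15.6%) and in 2.71% of all 32851 promoters. The YY1 motif AAGATGGCG was in 8 (10.4%, against 1.403%), the ETS motif CCGGAAGT bound by GABPA in 5 (6.49%, against 3.89%) and the ESRRA motif TCAAGGTCA in 2 (2.60%, against 0.423%). Of the 20 matched genes that were lower in cluster 1, 4 held the NRF1 core, and of the 51 not past the rule, 8 did. The YY1 motif was in 2 of the 20 and in 6 of the 51, the ETS motif in 2 and 3, and the ESRRA motif in 0 and 2. A match is a description of letters and not a measured site. The promoters of 6 genes that were lower in cluster 1 are printed 5′ to 3′ on the strand of the gene with the motif in capitals. These 6 are not typical of the lower genes. Matched promoters of Ndufs5, Ndufb3, Uqcr10, Cox7a2, Cox5b, Cox6b2 and Atp5d, which were also lower, hold none of the 4 motifs and are not printed. Sdhb (chr4:140961021-140961320, + strand) and Uqcrc1 (chr9:108936398-108936697, + strand) hold the NRF1 core, and Uqcrh (chr4:116075021-116075320, - strand) holds the ETS motif. Ndufs7 (chr10:80249199-80249498, + strand) and the downstream of 2 Atp5j promoters (chr16:84834927-84835226, - strand) hold the YY1 motif. The Atp5j promoter at the annotated 5′ end of the gene (chr16:84835576-84835875, not printed) holds none of the 4. Atp5o (chr16:91931581-91931880, - strand), the member with the largest log2 difference in complex V, holds none of the 4 either.
Sdhb: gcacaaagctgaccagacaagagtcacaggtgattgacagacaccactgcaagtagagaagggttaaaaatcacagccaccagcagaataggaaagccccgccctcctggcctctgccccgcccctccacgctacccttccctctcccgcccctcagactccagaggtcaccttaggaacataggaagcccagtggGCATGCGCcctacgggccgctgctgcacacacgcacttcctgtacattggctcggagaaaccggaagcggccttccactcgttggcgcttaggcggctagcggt
Uqcrc1: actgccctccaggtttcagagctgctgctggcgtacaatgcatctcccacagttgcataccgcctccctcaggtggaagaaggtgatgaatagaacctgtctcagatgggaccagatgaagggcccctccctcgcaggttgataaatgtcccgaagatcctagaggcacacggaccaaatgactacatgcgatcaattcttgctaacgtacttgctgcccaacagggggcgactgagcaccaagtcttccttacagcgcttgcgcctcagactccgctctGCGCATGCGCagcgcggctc
Uqcrh: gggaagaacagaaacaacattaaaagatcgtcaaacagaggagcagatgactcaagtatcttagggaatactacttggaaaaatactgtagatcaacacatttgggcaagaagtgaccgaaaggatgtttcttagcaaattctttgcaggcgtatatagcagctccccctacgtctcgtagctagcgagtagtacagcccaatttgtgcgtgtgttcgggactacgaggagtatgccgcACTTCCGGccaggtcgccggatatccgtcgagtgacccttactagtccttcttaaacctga
Ndufs7: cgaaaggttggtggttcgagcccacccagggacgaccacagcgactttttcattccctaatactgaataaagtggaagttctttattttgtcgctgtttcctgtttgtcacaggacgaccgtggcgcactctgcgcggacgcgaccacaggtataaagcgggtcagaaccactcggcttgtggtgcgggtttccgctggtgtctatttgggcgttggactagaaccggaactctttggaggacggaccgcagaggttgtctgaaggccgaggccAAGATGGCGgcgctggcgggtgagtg
Atp5j: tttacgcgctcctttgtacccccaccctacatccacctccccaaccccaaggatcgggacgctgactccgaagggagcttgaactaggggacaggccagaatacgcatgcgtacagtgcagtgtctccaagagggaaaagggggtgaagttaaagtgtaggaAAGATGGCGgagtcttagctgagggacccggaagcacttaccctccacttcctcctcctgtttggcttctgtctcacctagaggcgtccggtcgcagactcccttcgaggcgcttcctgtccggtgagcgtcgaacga
Atp5o: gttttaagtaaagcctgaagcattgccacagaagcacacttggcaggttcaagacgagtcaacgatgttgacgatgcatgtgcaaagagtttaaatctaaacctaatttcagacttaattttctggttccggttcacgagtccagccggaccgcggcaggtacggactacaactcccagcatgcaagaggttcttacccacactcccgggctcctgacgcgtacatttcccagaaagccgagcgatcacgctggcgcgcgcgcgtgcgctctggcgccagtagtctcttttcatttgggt

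The response to E2 was then examined within each cluster, which asks whether respiratory genes changed in the cells that respond to the hormone. In responsive cells the E2 and control ranges overlapped for all 5 complexes, with and without library 15. Complex II had the largest log2 difference, with 494, 616 and 723 CPM in control and 584, 770 and 1442 CPM in E2. The 1442 CPM was library 15, and 6 of 9 E2 sums lay above every control sum. The log2 difference was 0.36 (pooled SD 0.29), or 0.25 (pooled SD 0.18) without library 15.

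Complexes I and IV each had 7 of 9 E2 sums above every control sum and 2 below every control sum. Complex I had 8675, 16495 and 18658 CPM in E2, and the log2 difference was 0.06 (pooled SD 0.23) with all libraries and 0.16 (pooled SD 0.10) without library 15. Complex IV had 4804, 12605 and 13506 CPM in E2, with log2 differences of 0.03 (pooled SD 0.33) and 0.18 (pooled SD 0.10). Libraries 15 and 20 were the pair below control in both. Complex III had log2 differences of -0.11 and 0.08, and complex V of 0.05 and 0.08, with and without library 15.

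No member was called for E2 in responsive cells by edgeR, with 89 tested, 8 at an unadjusted p below 0.05 (7 higher, 1 lower) and a background of 1.37% of all genes called. The share at an unadjusted p below 0.05 by edgeR was 8.99% of the members and 9.89% of all genes. DESeq2 and limma-voom also called none, with 10 and 7 at an unadjusted p below 0.05. The median log2 difference was 0.09, against 0.02 over all genes, and 64 of 89 members (71.9%) were above 0, against 52.0% of all genes. By complex the medians were 0.08, 0.40, 0.16, 0.09 and 0.08 from I to V.

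Without library 15, 2 of 89 members were called and both were higher, while 1.35% of all genes were called. These 2 are named after their values were seen. Ndufa7, an accessory subunit of complex I, had 320, 486 and 676 CPM in control and 149, 830 and 1064 CPM in E2. The value of 149 CPM was library 15, and the other E2 libraries began at 589 CPM, so the groups still overlapped. The log2 difference was 0.60 (SE 0.22, adjusted p = 0.267 by edgeR) with all libraries and 0.74 (SE 0.13, adjusted p = 0.000737) without library 15. Cox6c2, the copy of Cox6c, had 59.6, 86.9 and 145 CPM in control and 37.9, 147 and 195 CPM in E2. Its log2 differences were 0.57 (SE 0.23, adjusted p = 0.351 by edgeR) with all libraries and 0.70 (SE 0.17, adjusted p = 0.0328) without library 15. Cox6c itself, with which it may share counts, had 0.02 (SE 0.17) with all libraries and 0.15 (SE 0.07) without library 15. At an unadjusted p below 0.05 by edgeR there were then 20 of 89 members, of which 19 were higher and Ndufa2 was lower. Over all genes 1020 of 10435 had such a p. The median of the members was 0.14 against 0.00 over all genes.

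The members with the lowest p in each complex with all libraries were Ndufb10, Sdhb, Uqcrb, Cox6c2 and Atp5c1. Ndufb10 had 116, 176 and 291 CPM in control and 211, 242 and 345 CPM in E2 (log2 0.47, SE 0.15, adjusted p = 0.165 by edgeR). Its ranges overlapped, and it passed the rule only when control library 8 was left out (log2 0.56, adjusted p = 0.0475). Sdhb had 63.6, 83.2 and 161 CPM in control and 91.5, 143 and 211 CPM in E2 (log2 0.52, SE 0.20, adjusted p = 0.328), and the value without library 15 was 0.52.

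All 4 subunits of complex II had positive log2 differences in responsive cells, which none of them carried past the test. Sdha had 79.9, 138 and 226 CPM in control and 88.5, 200 and 282 CPM in E2 (log2 0.41, SE 0.21), which changed to 0.37 without library 15. The differences of Sdhc and Sdhd were 0.30 and 0.38 and rested on library 15, without which they were 0.06 and 0.14. Uqcrb had a difference of 0.25 (SE 0.17), and that of Atp5c1, the central stalk subunit, was 0.40 (SE 0.19) and became 0.14 (SE 0.11) without library 15, which held 1208 CPM against 296 to 432 CPM in control.

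**Figure D5:**
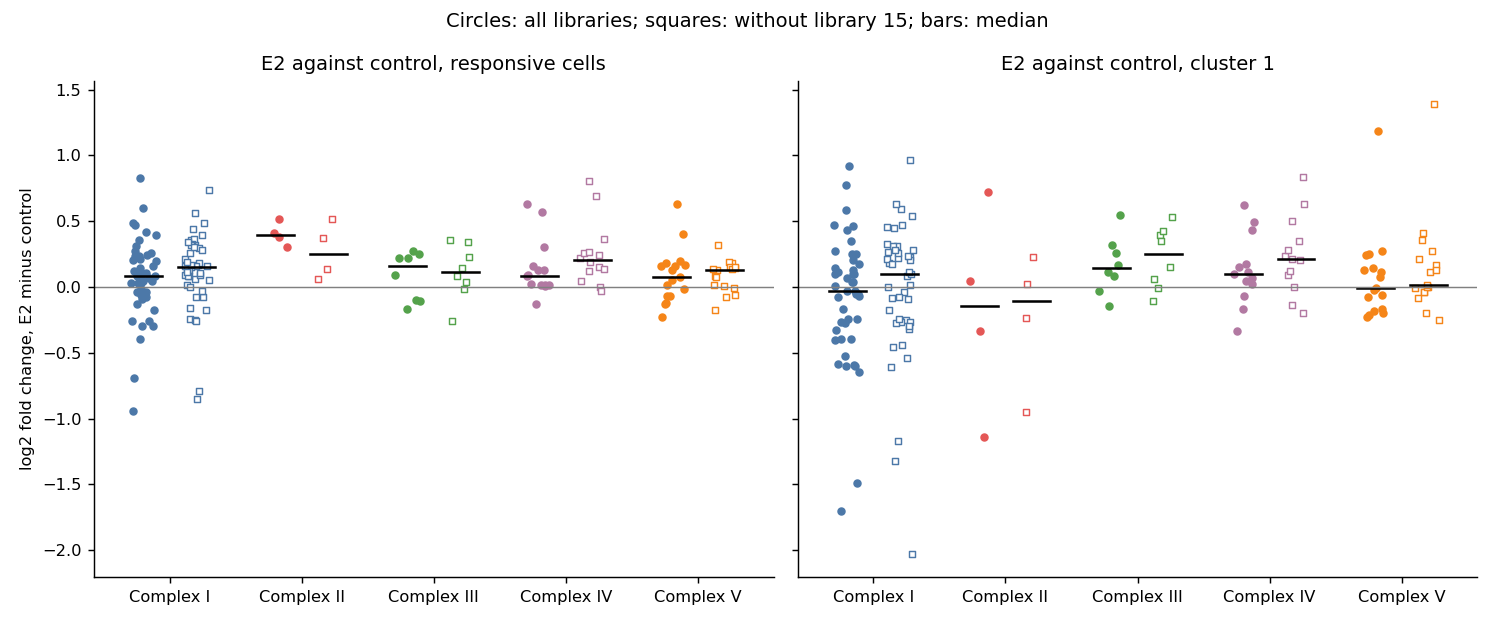
Fitted log2 fold change, E2 minus control (vertical axis), of each tested member by complex (horizontal axis) in responsive cells (left) and cluster 1 (right). Filled circles use all libraries, open squares leave out library 15 and bars are medians; most points lie between -0.5 and 0.5 in responsive cells and spread more widely in cluster 1.

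In cluster 1 no member was called for E2, with 87 tested, 3 at an unadjusted p below 0.05 (3.45%, against 7.46% of all genes) and 0.0839% of all genes called. DESeq2 and limma-voom called none, with 8 and 5 at an unadjusted p below 0.05. The 3 were Uqcrb (log2 0.54, SE 0.21, adjusted p = 0.521 by edgeR), Cox5a (log2 0.50, SE 0.21) and Ndufb8 (log2 0.47). Without library 15 none was called either, and 14 of 87 had an unadjusted p below 0.05 (11 higher, 3 lower), against 507 of 8778 over all genes.

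The median of the members was 0.05, while that of all genes was -0.06, or 0.05 with DESeq2 size factors. With all libraries, the complex sums of cluster 1 differed by less than the spread between libraries. Complex I had 13120, 13639 and 15700 CPM in control and 7508, 13998 and 17272 CPM in E2 (log2 -0.06, pooled SD 0.26). The log2 differences of complexes II to V were -0.12, -0.10, 0.02 and -0.02, with pooled SDs from 0.23 to 0.52. Without library 15 they were 0.08, -0.30, 0.13, 0.17 and 0.07 from I to V. Complex IV then differed by about its pooled SD of 0.17, with 4 of 6 E2 sums above every control sum. These E2 sums held only 3 to 9 cells each.

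Whether the E2 effect differed between the clusters was tested as an interaction. No member of 91 was called, with 6 at an unadjusted p below 0.05, all negative, and 0.184% of all genes called. The share at an unadjusted p below 0.05 by edgeR was 6.59% of the members and 10.9% of all genes. Of those 1244 genes, 899 were negative. DESeq2 and limma-voom called none, with 6 and 3 at an unadjusted p below 0.05. The 6 were Ndufaf7, Sdhc, Cox6b2, Ndufv1, Ndufaf6 and Ndufs7. Ndufaf7 had the smallest adjusted p (log2 -2.60, adjusted p = 0.197 by edgeR) at medians of 29.6 and 19.5 CPM in responsive cells and cluster 1. For Sdhc the interaction was -1.46 (adjusted p = 0.229), with an E2 difference of 0.30 in responsive cells and -1.14 in cluster 1, and it was -1.04 (adjusted p = 0.371) without library 15. The median of all genes in this comparison was -0.19, and -0.02 with DESeq2 size factors, while that of the members was -0.08.

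Other genes that act with the chain were counted from lists, for which the shares of all genes past the rule between clusters (9.78% lower, 6.25% higher) are again the background. The 13 subunits made from mitochondrial DNA did not follow the nuclear members: between clusters 1 was past the rule as higher (mt-Nd6, log2 0.71, SE 0.12) and none as lower, and the median was 0.22. With E2 in cluster 1, mt-Cytb (log2 0.83, SE 0.16, adjusted p = 0.042 by edgeR) and mt-Co2 (log2 0.79, SE 0.16, adjusted p = 0.042) were higher. Neither call held when any 1 control library was left out, after thinning or without the low-count filter. In each of those fits no gene at all was called higher. In responsive cells none of the 13 was called, although mt-Cytb had a log2 difference of 0.49 (SE 0.12, adjusted p = 0.026), just within the fold threshold. The interaction was 0.29 for mt-Cytb (adjusted p = 0.668) and was not called for any of the 13, so a difference between the clusters was not shown. The share of counts from mitochondrial genes had a median of 2.16% in responsive control, 2.40% in responsive E2, 2.61% in cluster 1 control and 3.26% in cluster 1 E2 sums.

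Of the 7 electron carrier genes tested, Cyc1, which encodes cytochrome c1 of complex III and falls outside the symbol rule, was lower in cluster 1 (log2 -0.93, SE 0.19, 16 of 17 libraries). Etfa was lower by the rule too (log2 -1.03, SE 0.32), but in only 12 libraries, with 5 higher. Of 37 assembly factors outside the rule, 4 were lower and none higher, a share near the 9.78% of all genes: Cox14 (log2 -0.77), the copper chaperone Cox17 (log2 -0.80), the membrane insertase Oxa1l (log2 -1.91) and Taco1, which had 205 reads in all and 0 in cluster 1. Of 8 genes for ATP and phosphate exchange, Slc25a5 was higher (log2 0.73, SE 0.21), and Vdac2 (log2 -0.59) and Atpif1, the inhibitor of ATP synthase, were lower (log2 -1.35, SE 0.18, 17 of 17 libraries). None of 16 regulators was past the rule, among them Nrf1 (log2 0.00, SE 0.30) and Gabpa (log2 -0.37, SE 0.51), at a median of -0.39. In responsive cells no gene of these 5 lists was called for E2.

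By cell, a median of 77 of the 96 members had at least 1 read in responsive control cells, 76 in responsive E2 cells, 72.5 in cluster 1 control cells and 71 in cluster 1 E2 cells. After thinning to 20000 reads per cell the medians were 70, 70, 64 and 63. Most nuclear respiratory chain genes were therefore detected in most cells of both clusters.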

How the data were processed

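Cells from 20 chip columns were sequenced by the Fluidigm C1 HT 3' protocol; column 13 was not analysed here. Per the study's methods and the submitters' processing notes (kallisto 0.44.0, build GRCm38), the authors made and deposited a table of estimated counts (genes by cells) after filtering cells and genes, together with the SC3 cluster of each cell. A file of imputed log values was not used. Counts were summed per library and cluster (at least 3 cells), rounded and fitted with edgeR 4.0.16 (TMM, filterByExpr, quasi-likelihood F test) in R 4.3.3, and SE is |log2 fold change|/√F. Calls needed a Benjamini-Hochberg adjusted p below 0.05 and a log2 fold change beyond 0.5. E2 against control was fitted within each cluster, the interaction and the cluster difference over all sums. Neither of the latter main fits had a library term, so sums of both clusters from the same library entered as separate samples. Complex sums were compared on the log2 scale. The fits were also run on simulated sums, drawn independently around a common mean per gene apart from the changes set. That simulation holds no shared library effect, so it does not cover sums of both clusters from the same library. Transcript length was that of the APPRIS principal transcript, or else the longest basic one, in GENCODE M21.

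Alternatives were DESeq2 1.42.0, limma-voom 3.58.1, DESeq2 size factors, no low-count filter, thinning to 20000 reads, at least 5 cells, a library block and leaving out each library. Leaving out library 15 between clusters, in the interaction and in the complex sums, and placing Ndufa4 in complex IV, were added after seeing the data. Named genes were those called for E2, the 3 furthest down and 1 up in each complex between clusters, paralogs, complex II, those below the count filter and the lowest E2 p per complex. The members, lists and marker genes were chosen with earlier results of these data known.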

Additional observations from a re-analysis of the deposited data

Results flagged for a closer look

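In 108 groups of library values tested for a single distant value, 11 values stood apart by Dixon's criterion, and all 11 were from library 15; chance gives about 1 in 20 groups. In its responsive cells the summed level of complex II was 1442 CPM and that of complex IV was 4804 CPM. Among single genes in the same cells, Atp5c1 stood at 1208 CPM, Sdhc at 402 CPM and Sdhd at 652 CPM, all above the other E2 libraries. Cox5b at 214 CPM, Cox7a2 at 392 CPM, Ndufb3 at 107 CPM, Ndufs5 at 136 CPM and Uqcrh at 247 CPM lay below them. In cluster 1 of library 15, Sdhd stood at 768 CPM.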

How the results depend on the processing

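The count of members called for E2 in responsive cells was 0 under every other tool, scaling and filter run and 0 to 2 when 1 library was left out: it was 1 without control library 8 and 2 without E2 library 15. No member was called for E2 in cluster 1 or in the interaction under any setting run. Members past the rule between clusters numbered 24 to 34, with 34 under a library block and 32 under that block without library 15. The block moved the median of all genes from -0.06 to -0.41. It also moved the calls over all genes, from 1115 lower and 712 higher of 11398 to 1542 lower and 412 higher of 11250. The complex I difference between clusters was 0.013 on CPM without TMM factors and -0.37 as a mean of log2(CPM + 1) over members, a scale that weights low genes more; the same mean gave -0.61 for complex IV between clusters, and -0.41 for complex I and -0.79 for complex II with E2 in cluster 1. Sdha between clusters turned negative with limma-voom (-0.025), without the filter (-0.044), with the library block (-0.13) and with that block without library 15 (-0.054); the cause was not tested. Sdhd passed the rule between clusters in 5 settings. No paired analysis of E2 against control was possible because control and E2 libraries share no column number. Depth limits cluster 1 with E2, where 7 sums held 39 cells.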
